A study of Mus musculus with 16 samples.

Results

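Ketone bodies reach heart muscle through a membrane carrier and are burned in its mitochondria, and 4 genes of that route were followed here across cultured mouse cardiomyocytes. They were Slc16a1, Bdh1, Oxct1 and Acat1, taken by gene symbol from a table of 11631 protein-coding genes, together with their 5 rows in a table of 23055 transcripts. All 4 were measured in every library and passed the filter on low values. They were chosen by their place in the route, with measured values of the comparison of DM-HFD (diabetic, high fat diet-fed) with control cells given vehicle already known, among them the low Oxct1 level. That comparison is therefore described below without a test.

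The liver makes acetoacetate and 3-hydroxybutyrate from fatty acids during fasting or when insulin is short, and the heart is one of their main users. Monocarboxylate transporter MCT1, the product of Slc16a1, carries them across the cell membrane together with protons, as it does lactate and pyruvate. In the mitochondria, 3-hydroxybutyrate dehydrogenase (Bdh1) turns 3-hydroxybutyrate into acetoacetate. Succinyl-CoA:3-oxoacid CoA transferase (Oxct1) then loads acetoacetate with CoA taken from succinyl-CoA, a step that the liver lacks, and acetoacetyl-CoA thiolase (Acat1) splits the product into acetyl-CoA. Acat1 also works in the breakdown of isoleucine, and both it and Bdh1 catalyse reversible reactions.

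Primary cultured cardiomyocytes from C57BL/6 mice were compared in 4 conditions over 16 libraries. Control cells came from mice of about 8 weeks of age and were given either 0.1% DMSO as vehicle (Control-Vehicle, 5 libraries) or 9 nmol/L linagliptin (Control-Linagliptin, 5 libraries) for 24 h. DM-HFD cells came from mice fed a high fat diet for 26 weeks and given streptozotocin, which destroys insulin-producing beta cells, after 12 weeks of it, and they received vehicle (DM-HFD-Vehicle, 3 libraries) or linagliptin (DM-HFD-Linagliptin, 3 libraries) in the same way. Linagliptin inhibits dipeptidyl peptidase 4 (DPP-4), an enzyme that degrades incretin hormones. Diet, streptozotocin and age separate the DM-HFD from the control cells at once, so their parts in any difference cannot be told apart. The sources used here do not say which libraries came from the same heart, so the p-values measure the spread between libraries, which may be partly technical.

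All 10 cardiomyocyte markers on the list were present in every library, none below 7.64 FPKM. The DM-HFD libraries were less alike than the controls. The library labelled DM-HFD-Linagliptin replicate 1 lay closest to the control cells. Across 10046 genes it lay 33.4% of the way from the mean of all control libraries to the mean of the other 5 DM-HFD libraries. Each of those 5, placed likewise against the remaining DM-HFD libraries, lay 82.7% to 129% of the way. Whether the label of DM-HFD-Linagliptin replicate 1 is right was not tested. The tests of the 4 genes that use this library are given with and without it. Mitochondrially encoded genes took 33.1% to 40.0% of the summed FPKM in the 10 control libraries, 44.1% to 52.2% in DM-HFD-Vehicle and 26.5% to 41.4% in DM-HFD-Linagliptin. Values are FPKM, a read abundance scaled by transcript length and library size, with mean ± SD over libraries; the methods give only a planned depth, and read counts were not used here, so the depth behind each value was not computed.

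The table places Oxct1 (ENSMUSG00000022186.14) on the forward strand of GRCm38 at chr15:4026383-4155344 and Bdh1 (ENSMUSG00000046598.14) on the forward strand at chr16:31422280-31458901. Slc16a1 (ENSMUSG00000032902.1) lies on the forward strand at chr3:104638668-104658462 and Acat1 (ENSMUSG00000032047.5) on the reverse strand at chr9:53580522-53610382. Non-coding genes overlap 3 of them in the GENCODE annotation (2 for Oxct1, 1 for Bdh1 and 2 within Slc16a1), and none of these is in the gene table. Bdh1 had 1 listed transcript, Bdh1-203, which starts inside the gene at position 31428748. Its mean in Control-Vehicle was 10.1 FPKM against 8.28 for the gene, so the gene value is not that of this transcript alone. The sequences before the starts of the listed transcripts are shown because Oxct1 and Slc16a1 varied together between libraries, as described below. They are from RefSeq (GRCm38.p6), read 5′ to 3′, and run from 250 bases before the RefSeq start to at most 30 bases into the GENCODE transcript; capitals mark the motif matches.
Oxct1, chr15:4026178-4026412, forward strand: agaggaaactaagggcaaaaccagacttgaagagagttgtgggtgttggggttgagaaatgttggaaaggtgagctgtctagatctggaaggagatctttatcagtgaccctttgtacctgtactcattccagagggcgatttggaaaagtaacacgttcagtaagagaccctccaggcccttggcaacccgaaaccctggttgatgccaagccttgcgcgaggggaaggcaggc
Bdh1 (at the start of Bdh1-203), chr16:31428503-31428777, forward strand: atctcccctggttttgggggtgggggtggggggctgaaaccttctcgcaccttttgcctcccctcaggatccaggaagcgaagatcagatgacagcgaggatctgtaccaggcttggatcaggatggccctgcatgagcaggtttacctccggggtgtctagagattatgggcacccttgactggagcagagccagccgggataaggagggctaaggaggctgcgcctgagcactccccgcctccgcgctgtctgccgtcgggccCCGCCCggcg
Slc16a1, chr3:104638414-104638688, forward strand: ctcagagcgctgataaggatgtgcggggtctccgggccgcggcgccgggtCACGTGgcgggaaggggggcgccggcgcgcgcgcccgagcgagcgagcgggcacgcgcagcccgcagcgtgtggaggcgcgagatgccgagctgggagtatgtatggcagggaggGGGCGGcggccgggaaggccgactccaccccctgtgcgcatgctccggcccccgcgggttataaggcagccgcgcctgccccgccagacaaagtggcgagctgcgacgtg

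A set of 8 short motifs was searched on both strands of the 300-base windows, and the 3 printed stretches differed in composition: 50.6% G and C with 5 CpG for Oxct1, 63.3% with 14 CpG for Bdh1 and 74.9% with 40 CpG for Slc16a1. The motifs were the nuclear receptor half-site AGGTCA, the PPAR element (that half-site repeated after 1 spacer base), the estrogen-related receptor element TNAAGGTCA (which holds the half-site), the GC box GGGCGG, the CCAAT box of those letters, the TATA box TATAAA, the E-box CACGTG and the cAMP element TGACGTCA. Slc16a1 held an E-box 200 bases and a GC box 85 bases before its RefSeq start, and Bdh1 held a GC box on the opposite strand at base 16 after it. None of the 8 was found in the Oxct1 window. Of 32851 mouse promoters, 35.7% held the GC box, 7.15% the E-box, 16.3% the half-site, 37.4% the CCAAT box, 13.6% the TATA box, 1.79% the cAMP element, 1.28% the receptor element and 0.0396% the PPAR element. Acat1 had no entry in the table.

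Oxct1 was the most abundant of the 4 genes in control cells. It stood at 193, 183, 222, 249 and 163 FPKM in the Control-Vehicle libraries (202 ± 34.1, n = 5) and at 195, 184, 246, 161 and 168 FPKM in Control-Linagliptin (191 ± 33.7, n = 5). In DM-HFD-Vehicle it stood at 59.2, 112 and 41.8 FPKM (70.9 ± 36.4, n = 3), and in DM-HFD-Linagliptin at 162, 46.3 and 104 FPKM (104 ± 57.7, n = 3). All 3 DM-HFD-Vehicle libraries lay below every control library, whereas DM-HFD-Linagliptin replicate 1 reached the lower end of the control range. The order of the means was Control-Vehicle, Control-Linagliptin, DM-HFD-Linagliptin and DM-HFD-Vehicle, and within each kind of cell the vehicle and linagliptin libraries overlapped.

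Slc16a1, the carrier gene, had the lowest coefficient of variation of the 4 in each condition (8.07%, 4.93%, 22.5% and 36.7% in the order of the values that follow). Its values were 35.7, 36.1, 41.4, 37.8 and 33.4 FPKM in Control-Vehicle (36.9 ± 2.98, n = 5) and 34.7, 37.4, 37.1, 36.5 and 33.2 FPKM in Control-Linagliptin (35.8 ± 1.77, n = 5). They were 22.6, 27.8 and 17.6 FPKM in DM-HFD-Vehicle (22.6 ± 5.09, n = 3) and 35.4, 17.0 and 23.8 FPKM in DM-HFD-Linagliptin (25.4 ± 9.32, n = 3). As with Oxct1, the DM-HFD-Vehicle libraries lay below all controls, and replicate 1 of DM-HFD-Linagliptin lay among them.

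Acat1, which completes the route, stood at 117, 118, 137, 147 and 123 FPKM in Control-Vehicle (129 ± 13.3, n = 5) and at 118, 111, 146, 112 and 114 FPKM in Control-Linagliptin (120 ± 14.5, n = 5). It stood at 93.0, 125 and 79.6 FPKM in DM-HFD-Vehicle (99.3 ± 23.5, n = 3) and at 149, 65.4 and 95.6 FPKM in DM-HFD-Linagliptin (103 ± 42.1, n = 3). The ranges overlapped in every pair of conditions, and the highest single value belonged to a DM-HFD library.

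Bdh1 was the scarcest of the 4. Its values were 7.65, 6.59, 11.2, 10.7 and 5.23 FPKM in Control-Vehicle (8.28 ± 2.60, n = 5) and 6.52, 5.86, 9.07, 6.22 and 5.0 FPKM in Control-Linagliptin (6.53 ± 1.53, n = 5). In DM-HFD-Vehicle they were 2.43, 9.27 and 4.67 FPKM (5.46 ± 3.49, n = 3), and in DM-HFD-Linagliptin 9.52, 4.68 and 15.4 FPKM (9.87 ± 5.38, n = 3). DM-HFD-Linagliptin held both the lowest linagliptin value and the highest value of all 16 libraries. FPKM is scaled by transcript length, which allows a rough comparison between genes: by gene values Bdh1 stood at 4.03% of the Oxct1 level in Control-Vehicle and Acat1 at 64.3%. The ratio depends on the values used, since the transcripts Bdh1-203 and Oxct1-201 stood at 10.1 and 211 FPKM there, against 8.28 and 202 for the genes.

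**Figure D1:**
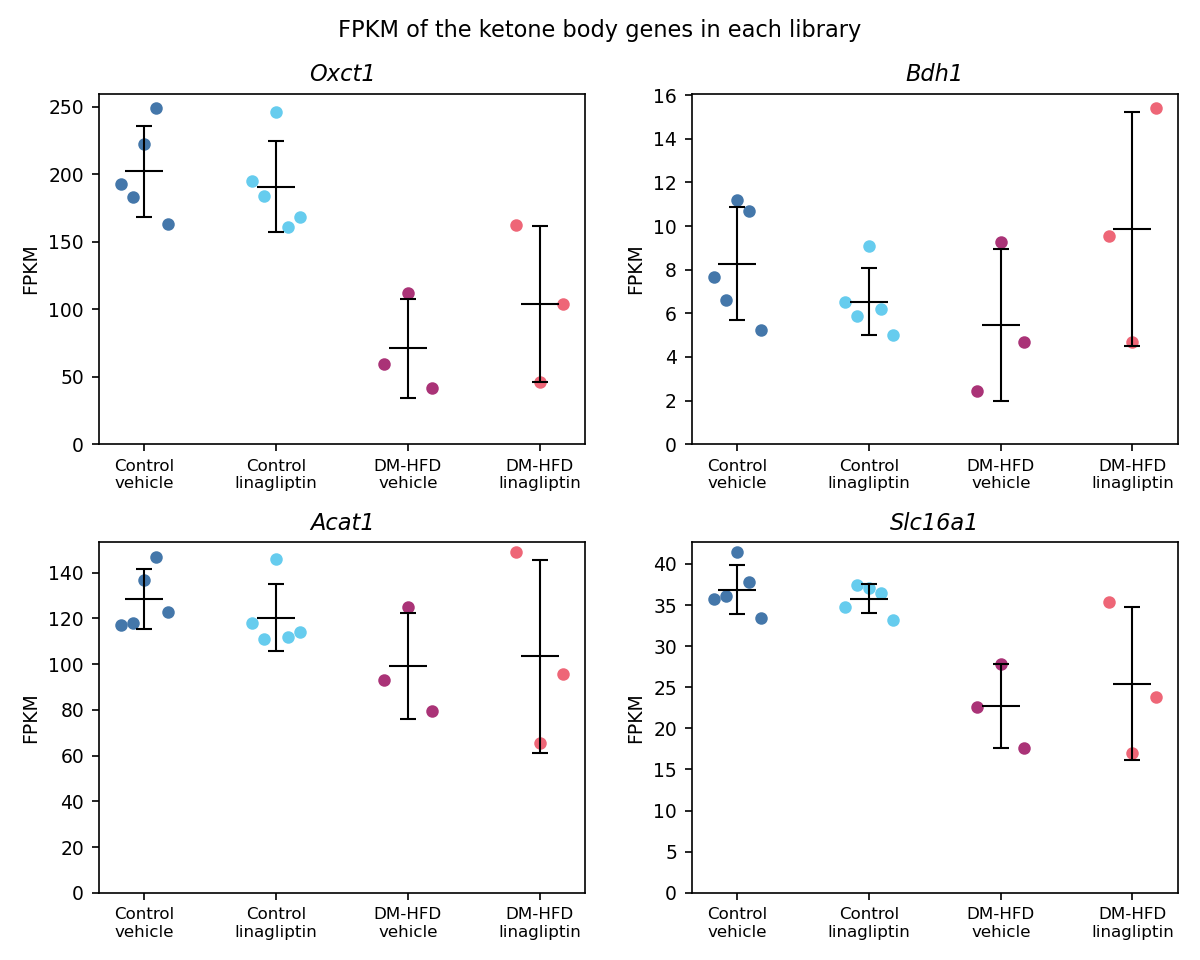
FPKM of Oxct1, Bdh1, Acat1 and Slc16a1 (y axes, each from 0) in the 4 conditions (x axis); each point is 1 library, and the horizontal mark and bar give the mean and SD. Oxct1 and Slc16a1 in DM-HFD-Vehicle lie below all control libraries (Oxct1 41.8 to 112 against 161 to 249 FPKM), while 1 DM-HFD-Linagliptin library of each gene reaches the control range.

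With vehicle, the DM-HFD cells had 35.1% of the control Oxct1 level, 61.4% of Slc16a1, 65.9% of Bdh1 and 77.2% of Acat1 as ratios of means. On the log2(FPKM + 1) scale the differences were −1.60 for Oxct1, −0.70 for Slc16a1, −0.62 for Bdh1 and −0.39 for Acat1, beside a median of −0.20 over all 11359 genes measured. A lower difference than that of Oxct1 was found for 0.106% of those genes. Groups that did not overlap with the DM-HFD libraries lower, as for Oxct1 and Slc16a1, were found for 30% of all genes. Over all genes, 31.3% were called in this comparison. Scalings moved the Oxct1 difference between −1.87 (TPM) and −1.29 (cardiomyocyte markers), and that of Acat1 from −0.65 to −0.07, and Ballgown's model turned that of Bdh1 to 0.80. These are descriptions, since this comparison was known when the genes were picked.

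Ratios between the genes, taken from the same levels, are given as a description. The Acat1 level was 64.3% ± 6.62 of the Oxct1 level in Control-Vehicle and 63.7% ± 4.88 in Control-Linagliptin (n = 5 each), against 153% ± 39.3 in DM-HFD-Vehicle and 108% ± 28.6 in DM-HFD-Linagliptin (n = 3 each). Control cells thus had a higher FPKM for Oxct1 than for Acat1 in every library, and the DM-HFD-Vehicle mean was reversed. The Acat1 share ran from 112% to 190% in DM-HFD-Vehicle and from 91.9% to 141% in DM-HFD-Linagliptin. The Oxct1 level was 5.46 times that of Slc16a1 in Control-Vehicle and 5.32 times in Control-Linagliptin, and 3.01 and 3.88 times in the DM-HFD groups with vehicle and linagliptin. With vehicle both ratios restate the low Oxct1 level known when the genes were picked, so they are no separate result, and no ratio was tested.

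The same contrast was tested in the cells given linagliptin. These are other libraries, but they may come from the same hearts as the vehicle libraries. The test may therefore partly repeat the known comparison. With linagliptin, the DM-HFD cells had 54.5% of the control Oxct1 level, a fall by 1.03 on the log2 scale. The SE was 0.33 and the 95% interval −1.77 to −0.28 (adjusted p = 0.0467 in limma with Benjamini-Hochberg adjustment over 11555 genes). Oxct1 was the only 1 of the 4 genes called at an adjusted p under 0.05, where 26.6% of all genes were called and 21.9% were called lower, so its call alone did not set it apart. Its difference was lower than that of all but 4.93% of genes.

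Slc16a1 had 71.0% of the control level, a log2 difference of −0.54 (SE 0.20, 95% interval −0.99 to −0.09) that missed the threshold (adjusted p = 0.0731, limma). For Acat1 the difference was −0.29 (−0.81 to 0.23, adjusted p = 0.358) and for Bdh1 it was 0.42 (−0.25 to 1.10, adjusted p = 0.306), which Ballgown's model turned to −0.99 (adjusted p = 0.276). The Acat1 interval holds the Slc16a1 estimate, and the Bdh1 interval does not. The median difference over all genes was −0.06.

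The Oxct1 call was close to its limit and depended on single libraries. It was lost when any 1 of 7 of the 8 libraries was left out, with differences of −1.11 to −0.54. Without DM-HFD-Linagliptin replicate 1, the library nearest to the control cells, the difference was −1.43 (adjusted p = 0.00383, limma). Slc16a1 (−0.80, adjusted p = 0.00218) and Acat1 (−0.59, adjusted p = 0.0223) were called as well, while Bdh1 stood at 0.38 (adjusted p = 0.397). That omission raised the calls over all genes too, from 3069 of 11555 to 5796 of 11560, of which 3439 were lower. The added calls alone therefore do not set these genes apart. Without DM-HFD-Linagliptin replicate 2, Bdh1 was called higher (0.82, adjusted p = 0.0380, limma), as were 168 of all 11421 genes.

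**Figure D2:**
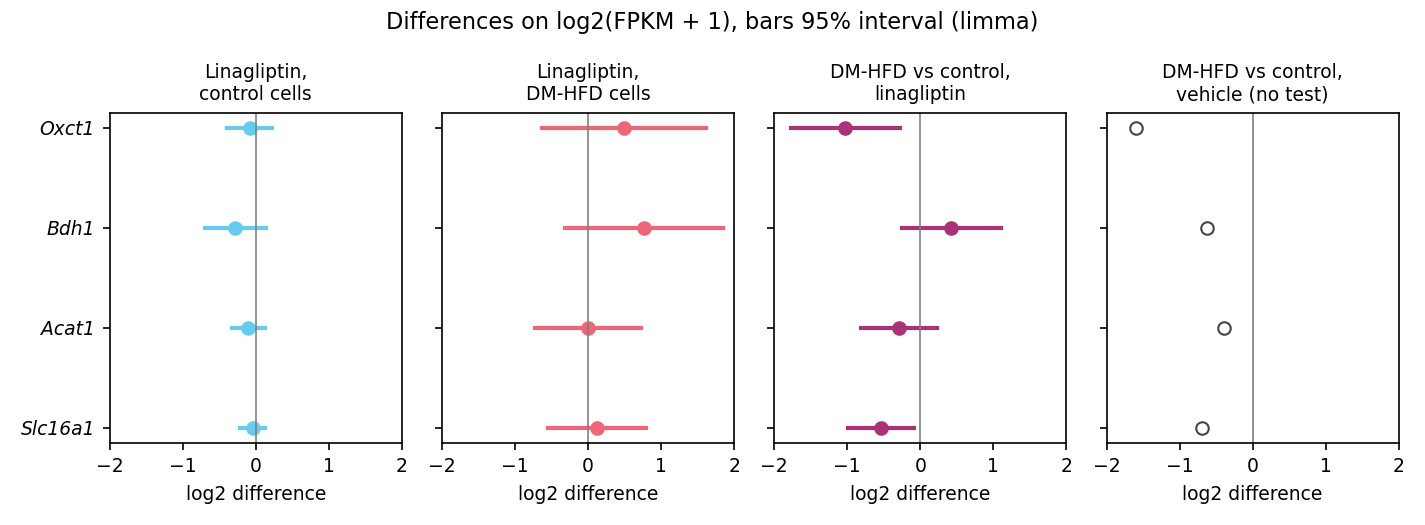
Differences on the log2(FPKM + 1) scale (x axes) for the 4 genes (y axis) in 4 comparisons; filled points with bars give the limma estimate and its 95% interval, and open points give the vehicle comparison, for which no test was made. Only the interval of Oxct1 and that of Slc16a1 in DM-HFD against control cells with linagliptin lie wholly below 0.

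Markers of the cardiomyocytes themselves moved with these genes among the DM-HFD libraries. Their summed level was 6530 to 7140 FPKM in the 10 control libraries, whereas it was 4780, 7010 and 5320 FPKM in DM-HFD-Vehicle and 7680, 4250 and 7850 FPKM in DM-HFD-Linagliptin. The 3 DM-HFD libraries with the most Oxct1 were thus also those with the highest marker sums. In bulk RNA, fewer cells of a type and less RNA per cell cannot be told apart. Per 1000 FPKM of these markers, a scale chosen after seeing the data, Oxct1 stood at 22.8 to 37.7 in the control libraries and at 12.4, 15.9 and 7.86 in DM-HFD-Vehicle and 21.1, 10.9 and 13.2 in DM-HFD-Linagliptin. All 6 DM-HFD libraries lay below all 10 controls on that scale, and with it the difference in the linagliptin libraries was −0.95 on the log2 scale (adjusted p = 0.0374, limma). Of 11555 genes scaled in this way, 1174 were called in the linagliptin libraries, 1136 of them lower. How many genes separate all DM-HFD from all control libraries on the marker scale was not computed.

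Slc16a1 had lower values on the marker scale too, with 3.30 to 4.73 per 1000 FPKM of markers in DM-HFD-Vehicle and 3.03 to 4.61 in DM-HFD-Linagliptin against 4.68 to 6.01 in controls, and 1 DM-HFD library reached the lowest control. Acat1 did not separate, with 15.0 to 19.5 and 12.2 to 19.3 against 16.4 to 22.3. Macrophage and leukocyte markers (8 of 9 listed in the table, none at 0 in every library) summed to 23.1 to 35.0 FPKM in the control libraries, 35.1 to 85.5 in DM-HFD-Vehicle and 33.2 to 130 in DM-HFD-Linagliptin. Endothelial markers (10 of 10 present) summed to 117 to 202 FPKM in controls, 56.9 to 98.8 in DM-HFD-Vehicle and 46.6 to 136 in DM-HFD-Linagliptin. Fibroblast markers summed to 20.8 to 31.8 FPKM in controls, 9.82 to 49.6 in DM-HFD-Vehicle and 10.1 to 77.9 in DM-HFD-Linagliptin. Pericyte and smooth muscle markers summed to 71.0 to 104, 40.2 to 92.9 and 64.7 to 149 FPKM in the same order. Red cell markers (4 of 4) reached 435 FPKM in DM-HFD-Linagliptin replicate 2 against at most 19.8 in controls. That library also had the highest macrophage, fibroblast and pericyte sums and the lowest cardiomyocyte sum (4250 FPKM). The part of these other cells in the differences was not tested.

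Transcript length and base composition moved with the same contrast. Over 11407 genes, the difference between DM-HFD and control cells with linagliptin had a Spearman correlation of 0.665 with the G and C content of the gene's main transcript and of −0.416 with its length; this is across genes, which are not independent replicates. Slc16a1 has the longest and least G and C rich main transcript of the 4 (4426 bases, 42.9%), followed in composition by Acat1 (3405 bases, 45.5%), Oxct1 (3527 bases, 47.7%) and Bdh1 (3122 bases, 52.8%). With both trends removed, the difference of Oxct1 was −0.87 (adjusted p = 0.0983) and those of Slc16a1 and Acat1 were both 0.03 (adjusted p = 0.898 and 0.927, limma). In the vehicle libraries the same step left −1.47 for Oxct1, −0.29 for Slc16a1 and −0.15 for Acat1.

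Linagliptin was compared with vehicle to ask whether the drug acts on the cardiomyocytes themselves. In control cells no member passed the test: the log2 differences were −0.08 for Oxct1 (95% interval −0.39 to 0.22), −0.28 for Bdh1 (−0.70 to 0.14), −0.10 for Acat1 (−0.32 to 0.12) and −0.04 for Slc16a1 (−0.21 to 0.13), each with an adjusted p of 0.997 in limma. The share of all genes called was 0% of 11365, with 455 at an unadjusted p under 0.05. For Slc16a1 and Acat1 the intervals are narrow, and for Bdh1 the interval reaches down to −0.70.

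In DM-HFD cells the point estimates were 0.49 for Oxct1 (−0.63 to 1.61), 0.77 for Bdh1 (−0.32 to 1.85), 0.00 for Acat1 (−0.72 to 0.72) and 0.12 for Slc16a1 (−0.55 to 0.79), each with an adjusted p of 1 in limma. Again 0% of 11127 genes were called, while 129 had an unadjusted p under 0.05. The median difference over all genes was 0.12. The mean Bdh1 level was 1.81 times and the mean Oxct1 level 1.47 times that with vehicle, and the intervals of both hold no difference as well as a log2 difference of 1. Without DM-HFD-Linagliptin replicate 1, Acat1 stood at −0.30 and Slc16a1 at −0.14. Leaving out 1 library gave 0.09 (without DM-HFD-Linagliptin replicate 1) to 0.98 (without replicate 2) for Oxct1, and for Bdh1 0.38 (without DM-HFD-Vehicle replicate 1) to 1.17 (without DM-HFD-Vehicle or DM-HFD-Linagliptin replicate 2), with 0.72 without DM-HFD-Linagliptin replicate 1. Ballgown's model gave 2.11 for Oxct1, 1.79 for Bdh1, 0.88 for Acat1 and 0.94 for Slc16a1, each with an adjusted p of 0.784.

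The response to linagliptin was also compared between DM-HFD and control cells in 1 model over all 16 libraries. Bdh1 had the largest difference in response of the 4, at 1.04 on the log2 scale (SE 0.49, 95% interval 0.01 to 2.07, unadjusted p = 0.0484, adjusted p = 0.891 in limma). It lay at the percentile 99.7 of all genes and did not pass the adjustment. Oxct1 stood at 0.57 (−0.41 to 1.56, adjusted p = 0.911), Slc16a1 at 0.16 (−0.38 to 0.70) and Acat1 at 0.10 (−0.52 to 0.72). Without DM-HFD-Linagliptin replicate 1 the differences in response were 1.00 for Bdh1, 0.17 for Oxct1, −0.10 for Slc16a1 and −0.20 for Acat1, and none was called. The test called 0% of 11631 genes, with 532 at an unadjusted p under 0.05.

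The other pathway genes reported here were 35 symbols in 5 groups, of which 25 were in the table; Bdh2, Oxct2a, Oxct2b, Slc16a7, Slc16a8, Slc5a8, Slc5a12, Emb, Hcar1 and Hcar2 were not analysed here. With linagliptin, 4 of the 25 rose and 3 fell between control and DM-HFD cells, with a median difference of 0.10 beside −0.06 over all genes. Over all genes 4.67% were called higher and 21.9% lower (540 and 2529 genes), a split that median-of-ratios scaling moved to 1317 and 2079 genes. Leaving out DM-HFD-Linagliptin replicate 1 raised the number of pathway genes called from 7 to 12, leaving out replicate 3 lowered it to 0, and leaving out replicate 2 or any 1 Control-Linagliptin library lowered it to between 2 and 4. Over all genes the calls moved from 3069 to 5796 without DM-HFD-Linagliptin replicate 1 and to 106 without replicate 3. The calls of Bsg and Acaa2 were lost in 1 of the 8 omissions, that of DM-HFD-Linagliptin replicate 3 (0.53 and 0.59). Those of Sucla2, Acaa1b, Ppard and Esrrg were lost in 7 of 8, all but that of DM-HFD-Linagliptin replicate 1, and that of Pparg in 5 of 8. With vehicle, 1 of 23 tested was higher (Acaa2) and 5 were lower (Sucla2, Scp2, Pparg, Ppargc1a and Esrrg), beside 2.91% and 28.3% of all genes (331 and 3220 genes, or 1422 and 1850 under median-of-ratios scaling). The list was drawn up with this comparison known, so the vehicle counts are a description. The comparisons of linagliptin with vehicle called none of 24 genes in control cells and none of 25 in DM-HFD cells.

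Succinyl-CoA is the CoA donor of the Oxct1 reaction. Of 5 genes around it, 1 was called lower and none higher in DM-HFD-Linagliptin against Control-Linagliptin, beside 21.9% and 4.67% of all genes. That count alone does not set the group apart. The gene called was Sucla2, the ATP-forming subunit of succinyl-CoA synthetase. It stood at 114, 29.5 and 57.1 FPKM in DM-HFD-Linagliptin against 118 to 165 in Control-Linagliptin. Its log2 difference was −1.21 (SE 0.34, adjusted p = 0.0294, limma). With vehicle it stood at 71.9, 76.6 and 44.5 FPKM against 132 to 154. Suclg1 (0.14), the alpha subunit it pairs with, Suclg2 (−0.16), the GTP-forming subunit that can take its place, and the oxoglutarate dehydrogenase genes Ogdh (0.42, adjusted p = 0.115) and Dlst (0.10) did not pass the test.

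Among the transport genes, 1 of 3 was called higher in the same comparison, beside 4.67% of all genes. Bsg encodes basigin, the chaperone that brings MCT1 to the cell surface, and stood at 314, 346 and 448 FPKM in DM-HFD-Linagliptin against 209 to 263 in Control-Linagliptin (0.68, SE 0.15, adjusted p = 0.0137, limma). The chaperone gene was higher in the same libraries in which its client Slc16a1 had a difference of −0.54. That Slc16a1 difference was not called (adjusted p = 0.0731, limma) and turned positive with the length and G and C trends removed. Slc16a6 (−0.46, adjusted p = 0.0587), which encodes a related carrier, and Slc16a3 (−0.34, adjusted p = 0.400), the MCT4 gene, did not pass the test.

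Of 5 other thiolases, 2 were called higher in DM-HFD-Linagliptin against Control-Linagliptin, beside 4.67% of all genes (1460 of 11555 genes under quantile scaling). Acaa2 stood at 508, 451 and 579 FPKM against 288 to 399 (log2 difference 0.68, adjusted p = 0.0136, limma). Acaa1b had a difference of 0.61 (adjusted p = 0.0398, limma). They encode a mitochondrial and a peroxisomal thiolase of fatty acid oxidation. The other 3 did not pass the test. Most pathway calls of this comparison were lost with the length and G and C trends removed, as given below. Acaa1b was scarce, at 0.571, 1.41 and 2.07 FPKM against 0.337 to 0.598, and with vehicle its difference was −0.19, with 0.298, 0.700 and 0.478 FPKM in DM-HFD cells against 0.484 to 0.866. It has a close copy in Acaa1a (0.09), so the division of reads between them is uncertain. In the group of further breakdown and activation genes, none of 3 passed the test: Aacs, which activates acetoacetate in the cytosol, had a difference of 0.62 (adjusted p = 0.124), and the cytosolic thiolases Acat2 and Acat3 had 0.24 and 0.41, again with uncertain division between close copies.

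Of 9 regulators of fatty acid and ketone body genes, 1 was called higher and 2 lower, beside 4.67% and 21.9% of all genes. Ppard rose (0.54, adjusted p = 0.0352), and Pparg (−0.50, adjusted p = 0.0300) and Esrrg (−0.88, adjusted p = 0.0476), an estrogen-related receptor of heart energy metabolism, fell in limma. Ppara, a nuclear receptor that drives genes of fatty acid oxidation, had a difference of −0.33 (adjusted p = 0.384). Ppargc1a, the coactivator of mitochondrial genes, had −0.92 with linagliptin (adjusted p = 0.0773) and −1.07 with vehicle.

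**Figure D3:**
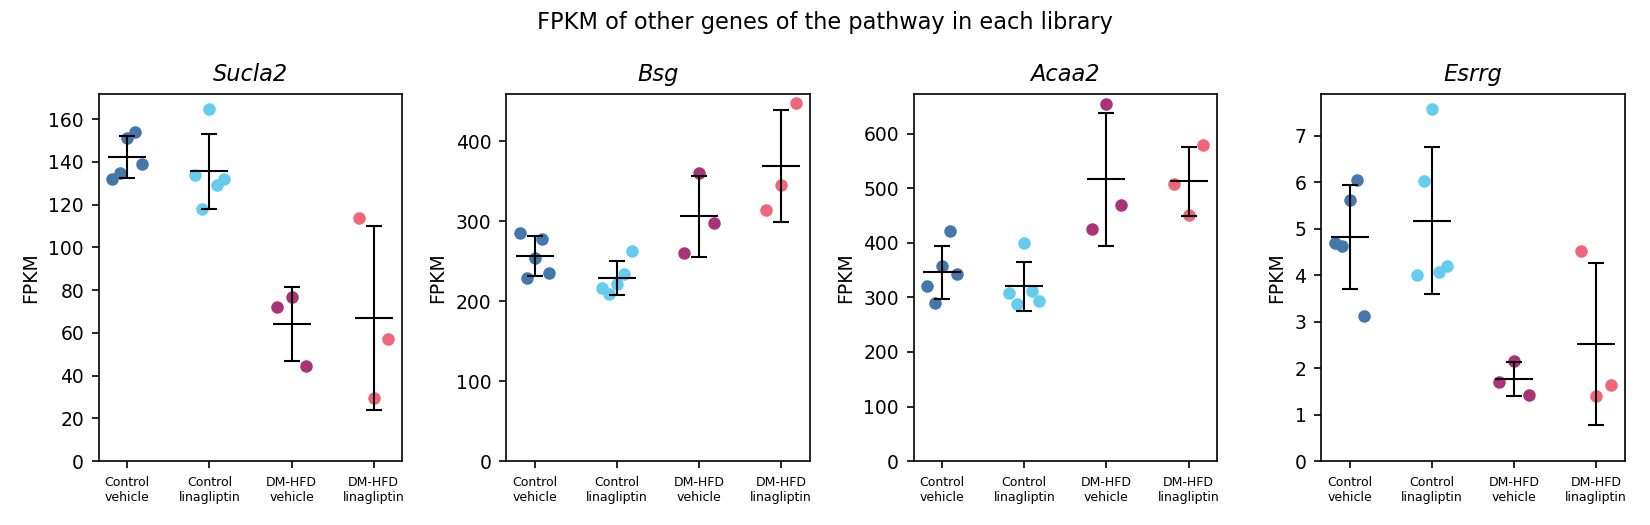
FPKM of Sucla2, Bsg, Acaa2 and Esrrg (y axes, each from 0) in the 4 conditions (x axis); each point is 1 library, and the horizontal mark and bar give the mean and SD. Sucla2 lies lower in all 6 DM-HFD libraries than in the controls, and Bsg in DM-HFD-Linagliptin (314 to 448 FPKM) lies above Control-Linagliptin (209 to 263 FPKM).

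**Figure D4:**
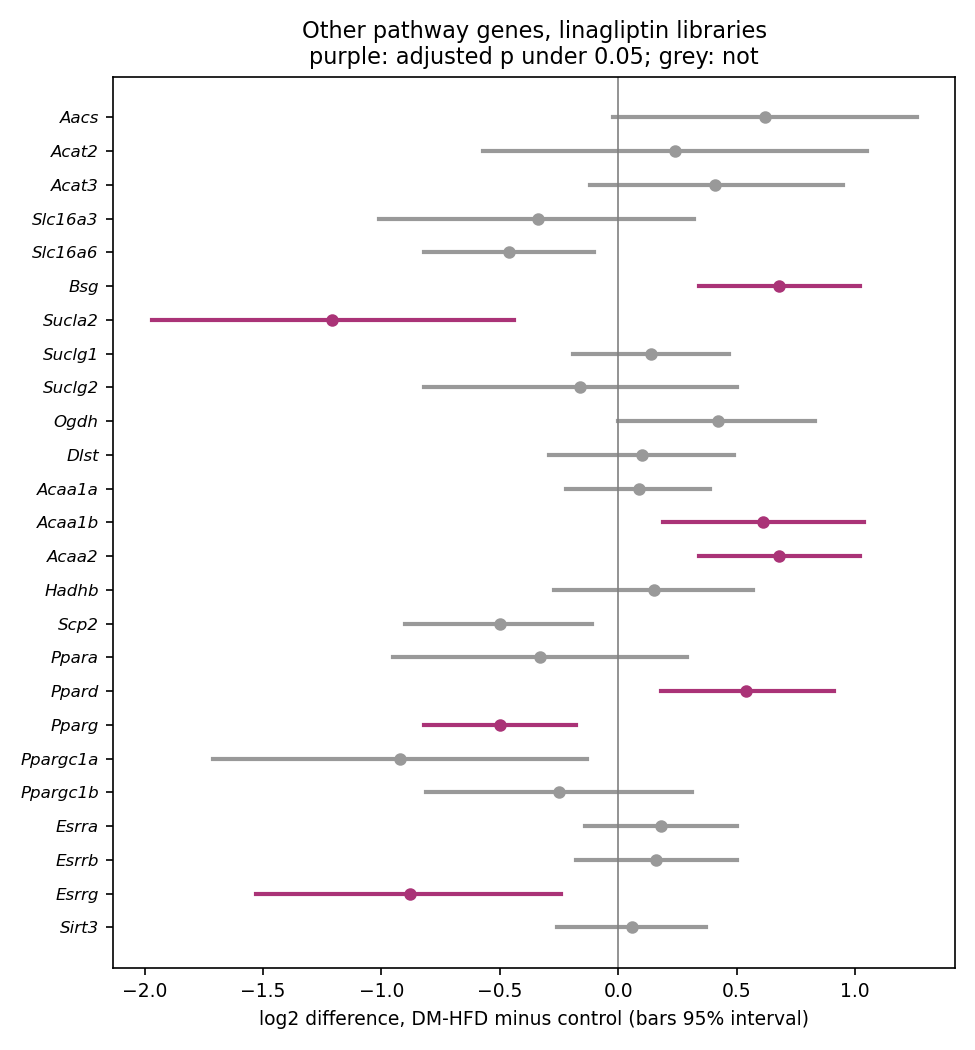
Difference between DM-HFD and control cells with linagliptin on the log2(FPKM + 1) scale (x axis) for the 25 other pathway genes (y axis); points are limma estimates, bars 95% intervals, purple an adjusted p under 0.05 and grey not. Sucla2 at −1.21 is the lowest, and Bsg and Acaa2 at 0.68 each are the highest.

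Oxct1, Acat1 and Slc16a1 were high and low in the same DM-HFD libraries. All 3 had their highest value in DM-HFD-Linagliptin replicate 1, the next in DM-HFD-Vehicle replicate 2, then DM-HFD-Linagliptin replicate 3 and then DM-HFD-Vehicle replicate 1. Acat1 and Slc16a1 were lowest in DM-HFD-Linagliptin replicate 2, and Oxct1 in DM-HFD-Vehicle replicate 3. Bdh1 differed from the other members: its highest value lay in DM-HFD-Linagliptin replicate 3, where Oxct1 stood at 104 FPKM. The shared order was not particular to the 3 members. On deviations from the condition means in the DM-HFD libraries, Sucla2 had a Pearson's r of 0.92 with Oxct1, 0.96 with Acat1 and 0.98 with Slc16a1. In the control libraries Oxct1 correlated at 0.91 with Bdh1, 0.89 with Acat1 and 0.61 with Slc16a1.

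**Figure D5:**
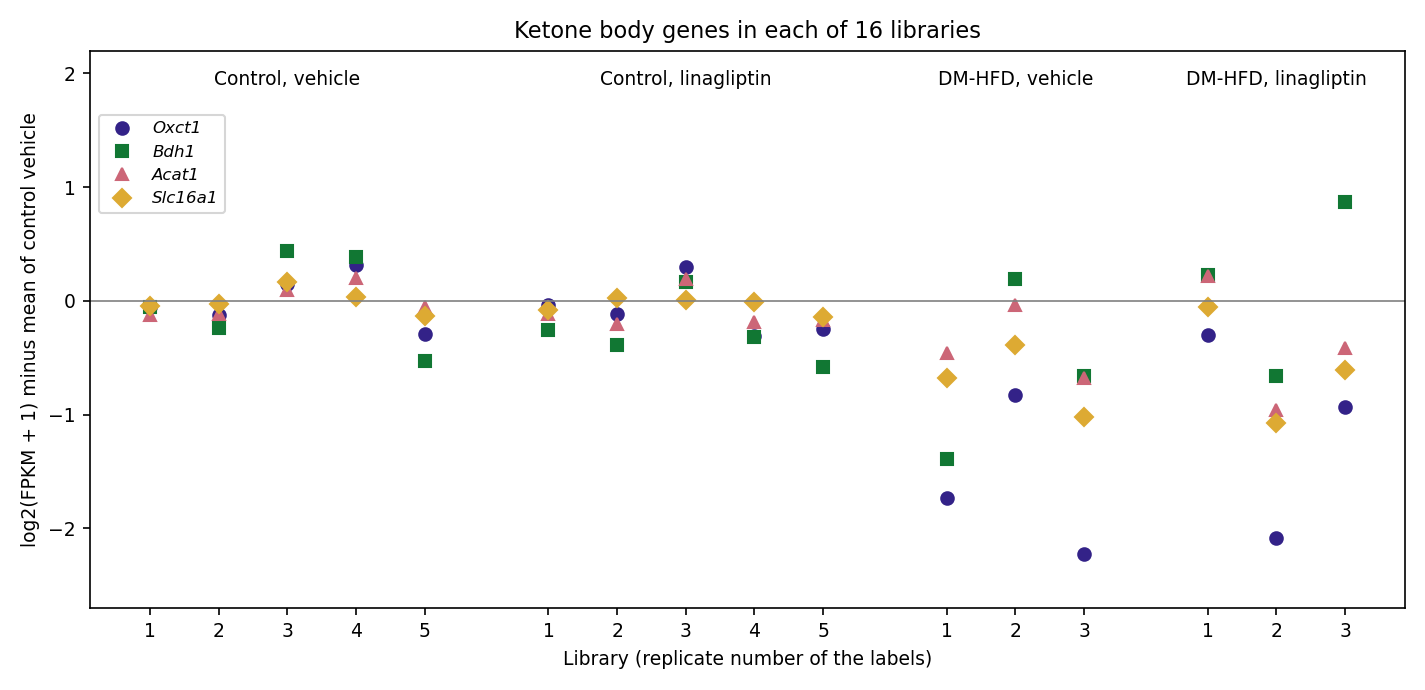
Level of the 4 genes in each of 16 libraries (x axis, replicate numbers by condition), as log2(FPKM + 1) minus the Control-Vehicle mean (y axis). Bdh1 varies among the control libraries as well (5.0 to 11.2 FPKM), and Oxct1 lies below 0 in all 6 DM-HFD libraries.

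A search of 10046 genes for those most like each member, by Pearson's r of log2 levels over the 16 libraries, gave Mfn1, Lpl and Aldh6a1 for Oxct1 (0.99, 0.98 and 0.98). It gave Aldh4a1, Pfkm and Pccb for Bdh1 (0.98, 0.94 and 0.93), Acadm, Phyh and Lrrc39 for Acat1 (0.98, 0.97 and 0.96) and Hspa4, Lmod3 and Tapt1 for Slc16a1 (0.98 each). These values are the extremes of a search over libraries that share their conditions and are given without a test. On deviations from the condition means, Acat1 itself was among the 3 genes most like Oxct1 (0.96), beside Aldh6a1, an enzyme of valine breakdown, and Grsf1, a mitochondrial RNA-binding protein (0.96 each). Bdh1 again went with Aldh4a1, Pccb and also Idh2 (0.98, 0.95 and 0.93), all genes of mitochondrial enzymes.

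At the transcript level, the full-length Oxct1-201 carried nearly all of the Oxct1 signal. It had a mean of 211 FPKM in Control-Vehicle and 73.5 in DM-HFD-Vehicle, and 199 and 108 FPKM in the 2 linagliptin groups. The second form, Oxct1-205, made up 0.342% to 3.65% of the summed Oxct1 transcripts in the control libraries and 0.440% to 5.74% in the DM-HFD libraries. With linagliptin, the DM-HFD difference was −1.03 for Oxct1-201 (adjusted p = 0.131 over 21858 transcripts in limma) and −0.24 for Oxct1-205 (adjusted p = 0.795). None of the 5 transcripts was called in any tested comparison, where 0.773% of all transcripts were called between DM-HFD and control cells, 0.014% for linagliptin in control cells, 0.00481% in DM-HFD cells and 0% for the difference in response.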

How the data were processed

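RNA-seq libraries were made from poly(A) RNA with a stranded kit and read in pairs. Per the labels and methods, the authors trimmed reads with cutadapt, checked them with FastQC 0.11.7, aligned them to GRCm38 with HISAT2 2.1.0, and estimated FPKM with StringTie 1.3.3 and Ballgown. The deposited FPKM tables hold genes and transcripts averaging 0.5 or more in a condition; read counts were not used here, so the depth of each library was not computed.

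Values were taken as log2(FPKM + 1), and each pair of conditions was fitted in R 4.3.3 with limma 3.58.1 (moderated variances with a trend) on genes whose mean reached 0.5 FPKM in either condition, with Benjamini-Hochberg adjustment over all of them. The difference in response used all 16 libraries. Genes with an adjusted p under 0.05 were called. The script was tested on simulated data. Alternatives changed the pseudocount, filter, scaling, model, length and G and C trends, replicate block and single libraries.

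The members and the pathway and marker lists were chosen with earlier results of these data known. Named genes were the 4 members, the listed pathway genes (1 further group of the list is not reported here), and the 3 genes most like each member by 2 measures among those averaging 1 FPKM or more.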

Additional observations from a re-analysis of the deposited data

Results flagged for a closer look

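Among 68 groups of 5 libraries examined, 8 held a library far from the other 4. For independent groups chance gives about 1 in 20. These groups are not independent: Acat1 and Acat1-201, its only listed transcript, are counted separately. The count can therefore not be set against that rate. Control-Linagliptin replicate 3 was the high library in 5 of the 8 groups. Its Acat1 level was 146 FPKM against 111 to 118 in the others, and its Acat1-201 transcript 161 against 123 to 130. The 3 others were genes of the wider pathway: Ogdh at 253 FPKM against 156 to 182, Acaa2 at 399 against 288 to 311, and Hadhb at 188 against 127 to 135. Mitochondrially encoded genes took 40.0% of the summed FPKM in that library, the highest share among the controls. Dlst stood at 43.1 FPKM in Control-Vehicle replicate 5 against 13.6 to 20 in the others. The minor transcript Oxct1-205 was high in Control-Vehicle replicate 5 (4.32 FPKM against 0.655 to 1.64) and in Control-Linagliptin replicate 5 (6.54 against 0.707 to 1.36), which carry the same replicate number.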

How the results depend on the processing

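The call of Oxct1 between DM-HFD and control cells with linagliptin was kept with pseudocounts of 0.1 and 0.01, no filter, a minimum of 1 FPKM, TPM scaling, quantile scaling and marker scaling, added after seeing the data. The count of members called went from 1 to 0, with Oxct1 at −0.93 (adjusted p = 0.0714) under median-of-ratios scaling, −1.02 (0.0534) from summed transcripts, −2.58 (0.187) in Ballgown's model, −1.03 (0.120) without moderation and −0.87 (0.0983) with length and G and C trends removed; the causes were not tested. Leaving out 1 library gave 0 to 3 members called. The other pathway genes called went from 7 to 0 in Ballgown's model, 3 without moderation, 1 without the trends, 1 with marker scaling, 4 with quantile scaling, 4 from summed transcripts and 0 to 12 with a library left out; with vehicle they went from 6 to 0 in Ballgown's model, and for the difference in response from 0 to a range of 0 to 1. All genes called with linagliptin went from 3069 to 1 in Ballgown's model, 1849 without moderation, 1062 without the trends, 1174 with marker scaling and 106 to 5796 with a library left out. Quantile scaling moved the split of these calls to 1460 higher and 1587 lower. The median difference of all genes between DM-HFD and control cells with vehicle went from −0.20 to −0.46 with TPM and to 0 with median-of-ratios scaling.

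The direction of some differences turned. For linagliptin in DM-HFD cells, Acat1 went to −0.17, −0.10 and −0.17 and Slc16a1 to −0.05, −0.03 and −0.05 under median-of-ratios, quantile and marker scaling, and the ranges with a library left out were −0.30 to 0.29 and −0.14 to 0.37. For the difference in response, Acat1 went to −0.07 and −0.14 and Slc16a1 to 0 and −0.07 under median-of-ratios and marker scaling, with ranges of −0.20 to 0.38 and −0.10 to 0.41. Slc16a1 went to 0.03 with marker scaling for linagliptin in control cells, with a range of −0.07 to 0. Between DM-HFD and control cells, Bdh1 went to −0.99 with linagliptin and 0.80 with vehicle and Pparg to 0.13 with vehicle in Ballgown's model, and Acat1 and Slc16a1 to 0.03 each without the trends.

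Replicate numbers did not meet the criterion for pairing, a correlation over 0.1 in every pair: deviations of same-numbered libraries correlated at −0.33 to 0.52 in control cells (over 0.1 in 4 of 5 pairs, best with the own number in 3 of 5) and at −0.60 to 0.21 in DM-HFD cells (1 of 3, and 1 of 3). Between DM-HFD and control cells, the replicate block joined libraries of the same number from different mice, so it stands for no real pairing. With it, 0 members and 0 other pathway genes were called with linagliptin (Oxct1 −1.16, adjusted p = 0.109 in limma). The same held for 0 of all genes, and 3 pathway genes were called with vehicle.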
